A study of Rattus norvegicus with 12 samples.

Results

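Interferon response genes were examined in the hippocampus of young rats from a pair of selectively bred lines. The members were 44 gene symbols of transcription factors, antiviral effectors and chemokines of the interferon response, matched to the symbol column of the array table with any "_predicted" ending removed. Of these, 32 symbols matched, with 35 of the 22523 probes. A further 12 symbols matched no probe: *Isgf3g* and *Isg15* are other names of genes measured here as *Irf9* and *G1p2*, and *Ifitm2*, *Ifi27*, *Ifi27l2b*, *Ifi44l*, *Rsad2*, *Usp18*, *Dhx58*, *Ifih1*, *Samd9l* and *Xaf1* were not analysed here.

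Total RNA came from the whole hippocampus of 12 male rats at postnatal day 14, all of generation F15, with no treatment named in the labels. There were 6 bred High Responders (bHR) and 6 bred Low Responders (bLR), lines selected for high or low locomotor activity in an unfamiliar environment. Each rat had its own Illumina RatRef-12 BeadChip array, so n = 6 per line, and this number limits the precision. The labels number the rats without naming litters, so rats of one litter may be among them. Markers of hippocampal neurons were present, with 9 of 11 measured genes above the median of all probes.

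Interferons are secreted proteins that warn cells of viral infection. Type I interferons bind the IFNAR receptor and type II interferon binds IFNGR. The receptor-bound kinases JAK1, TYK2 and JAK2 then phosphorylate STAT proteins. Complexes that hold STAT2 and IRF9 bind interferon-stimulated response elements in promoters, and STAT dimers bind gamma-activated sites. In the healthy brain many of these genes are expressed at a low basal level, and microglia, endothelium and choroid plexus respond readily to interferon.

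The promoters of these genes were searched for the letters of both elements. RefSeq promoter windows of the GRCr8 assembly, from 250 bases before to 50 bases after the gene start, were found for 24 of the 32 genes by symbol. The core of the response element was searched on both strands as GAAA and GAAA with any 2 bases between them. It was present in 15 of the 24 member promoters (62.5%) and in 3.92% of all 33469 promoters of the same length. The gamma-activated site was searched as TTCNNNGAA, which reads the same on both strands, and was present in 10 of the 24 (41.7%) against 8.87% of all promoters. In 6 member promoters both were found, and in 1 of them the letters of the motifs overlapped. The windows of *Stat2*, *Mx1*, *Oasl*, *Ifi35* and *Trim25* (5 of 24) held neither. A match describes letters in the window and is not a measured binding site. In 11 of the 15 promoters the first core began at positions -60 to -16 relative to the gene start. Short windows around the first core are shown for a selection of the 15 genes, 5′ to 3′ on the strand of the gene, with the core in capitals:
Ifit3 (chr1:241527267-241527306, + strand): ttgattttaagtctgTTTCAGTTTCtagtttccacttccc
Oas1a (chr12:41330410-41330455, + strand): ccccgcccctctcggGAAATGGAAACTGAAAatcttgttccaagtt
Oas1b (chr12:41395881-41395926, - strand): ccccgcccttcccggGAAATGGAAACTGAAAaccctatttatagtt
Oas1i (chr12:41285175-41285220, + strand): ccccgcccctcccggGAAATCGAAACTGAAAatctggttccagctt
Ifitm3 (chr1:205541778-205541817, - strand): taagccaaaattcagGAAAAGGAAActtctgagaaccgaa
Irgm (chr10:33742588-33742627, - strand): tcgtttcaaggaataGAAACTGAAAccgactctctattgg
Lgals3bp (chr10:104127874-104127913, - strand): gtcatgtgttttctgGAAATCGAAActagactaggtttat
Irf7 (chr1:205800068-205800107, - strand): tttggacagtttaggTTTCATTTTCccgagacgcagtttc
The 3 *Oas1* promoters carried 2 overlapping cores each within nearly the same surrounding letters.

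The full windows are shown for *Ifi44* and *Ifi47*, which had the lowest p-values among the members. *Ifi44* had 2 response element cores, in capitals, 1 beginning at position -26 and 1 just after the gene start, and no gamma-activated site. *Ifi47* had no core and 2 gamma-activated sites, in capitals, beginning at positions -212 and -96:
Ifi44 (chr2:243303791-243304090, - strand): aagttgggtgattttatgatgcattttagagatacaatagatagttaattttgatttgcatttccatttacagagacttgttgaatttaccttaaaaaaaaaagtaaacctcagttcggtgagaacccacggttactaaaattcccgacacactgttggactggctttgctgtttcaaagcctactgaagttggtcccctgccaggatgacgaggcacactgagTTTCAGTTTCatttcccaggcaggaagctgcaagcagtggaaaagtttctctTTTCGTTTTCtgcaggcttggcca
Ifi47 (chr10:33798494-33798793, + strand): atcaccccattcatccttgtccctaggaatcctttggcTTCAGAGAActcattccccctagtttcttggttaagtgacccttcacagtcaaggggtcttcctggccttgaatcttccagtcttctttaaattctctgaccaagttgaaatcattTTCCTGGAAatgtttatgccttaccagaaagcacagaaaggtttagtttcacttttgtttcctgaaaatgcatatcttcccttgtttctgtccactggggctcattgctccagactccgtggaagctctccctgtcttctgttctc

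Signals are given as log2 of the probe intensity after quantile normalisation of the 12 arrays, and differences as bHR minus bLR on that scale. The median of all probes was 6.66, and a probe was called bright when the mean of either line passed it. Detection p-values played no part here. Of the 35 member probes 20 were bright and 15 lay at or below the median, where probes have little room to differ. The arrays differed in brightness, with mean raw signals of 453 to 488 units on 3 dim arrays, bHR replicates 27, 29 and 39, and 750 to 1038 units on the other 9. The array of bHR replicate 27 correlated least with the rest, at a mean of 0.987, where the other arrays had 0.992 or more.

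No interferon response probe passed the test between the lines. Limma, fitted on all probes with Benjamini-Hochberg adjustment, called 0 of the 35 at an adjusted p of 0.05, and 0.0888% of all probes (20 of 22523; 0.0311% higher and 0.0577% lower in bHR). An unadjusted p under 0.05 was found for 2 of 35 probes (5.71%), *Ifi44* and *Ifi47*, both with higher values in bHR. Of all probes 6.02% did so, 3.2% higher and 2.81% lower. Values were higher in bHR for 20 probes and lower for 15, beside 50.9% higher of all probes, and the median difference was +0.01, with +0.00 over all probes. The split was 17 to 18 with arrays centred on their medians and 1 to 34 on unscaled arrays, on which all probes had a median of -0.22. The lines overlapped for every one of the 35 probes, while 0.391% of all probes did not overlap. The 95% confidence interval of the difference, unadjusted, lay within ±0.25 (1.19-fold) for 24 probes and within ±0.5 (1.41-fold) for 34. The exception was *Ifi44*.

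**Figure D1:**
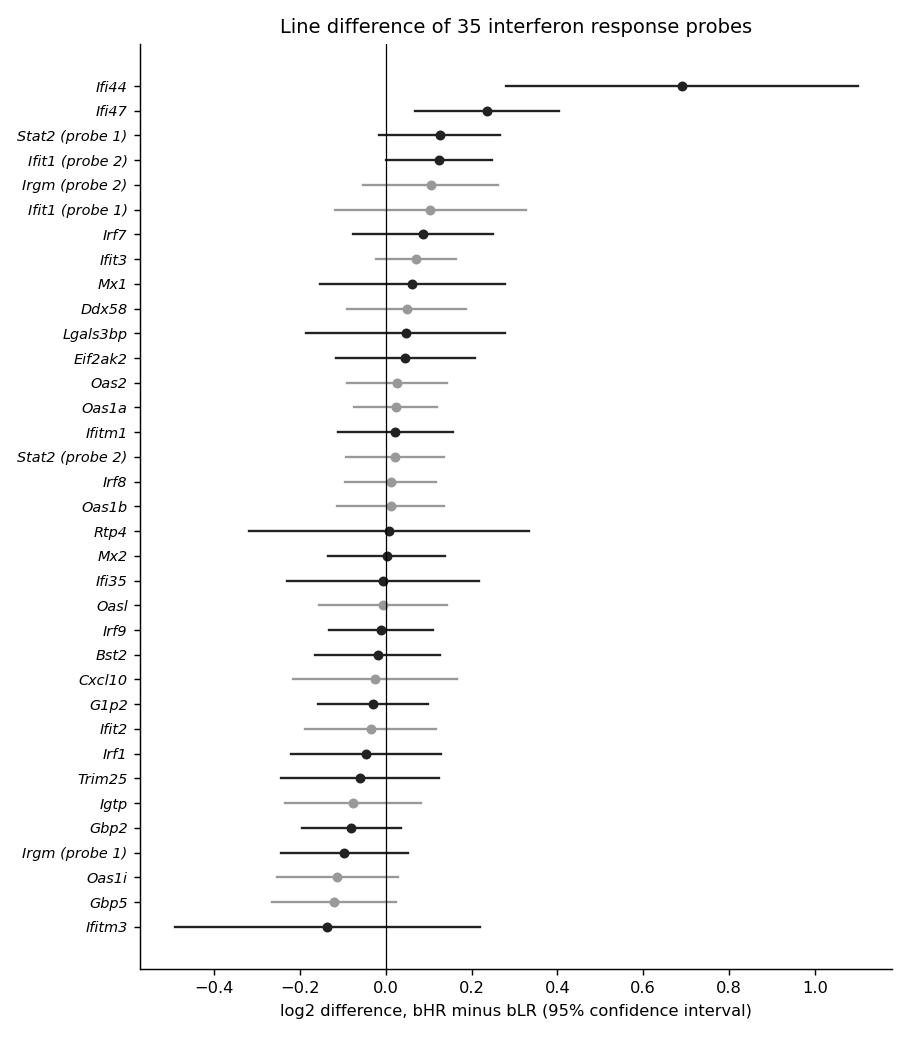
Difference between the lines for each of the 35 interferon response probes (x axis, log2, bHR minus bLR; points are limma estimates and bars 95% confidence intervals, n = 6 rats per line). Black marks bright probes and grey the others; only the bars of *Ifi44* and *Ifi47* lie wholly on one side of 0.

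*Ifi44*, a cytosolic protein induced by type I interferon, gave the largest difference of the 35. In bHR the lowest rat read 6.85, the median was 7.66 and the highest rat 8.17, and in bLR these values were 6.75, 6.86 and 6.95. The bLR rats lay close together, and the bHR rats fell in separate places. Replicates 27, 29, 41 and 47 read 7.64, 8.04, 8.17 and 7.69, each above every bLR rat, and replicates 33 and 39 read 6.92 and 6.85, within the bLR range. The bHR mean was 7.55 ± 0.55 (SD, n = 6) and the bLR mean 6.86 ± 0.07, with a difference of +0.69 ± 0.19 (SE), or 1.61-fold. With all probes in the adjustment this did not pass (limma adjusted p = 0.50; unadjusted p = 0.0028; exact two-sided permutation p = 0.024, n = 6 per line, where the smallest possible is 0.0022). Both dim and brighter arrays are among the high and the low bHR rats. Within the 9 brighter arrays the difference was +0.77 (limma adjusted p = 0.43), and on unscaled arrays it was +0.41. Leaving out 1 rat gave values from +0.57 (without bHR replicate 41) to +0.85 (without bHR replicate 39).

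*Ifi47*, a GTPase of the immunity-related family induced mainly by interferon gamma, was the other member with a low unadjusted p. In bHR the lowest, median and highest rats read 7.04, 7.12 and 7.29, and in bLR 6.73, 6.90 and 7.16. Of the 6 bHR rats, 2 (replicates 33 and 47) lay above the highest bLR rat. The means were 7.16 ± 0.09 (SD, n = 6) and 6.92 ± 0.18, with a difference of +0.24 ± 0.08 (SE; limma adjusted p = 0.65; unadjusted p = 0.0092; exact permutation p = 0.024). With arrays only centred on their medians it was +0.16, and without any scaling it was -0.04, which is above the shift of all probes but no higher in raw signal.

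**Figure D2:**
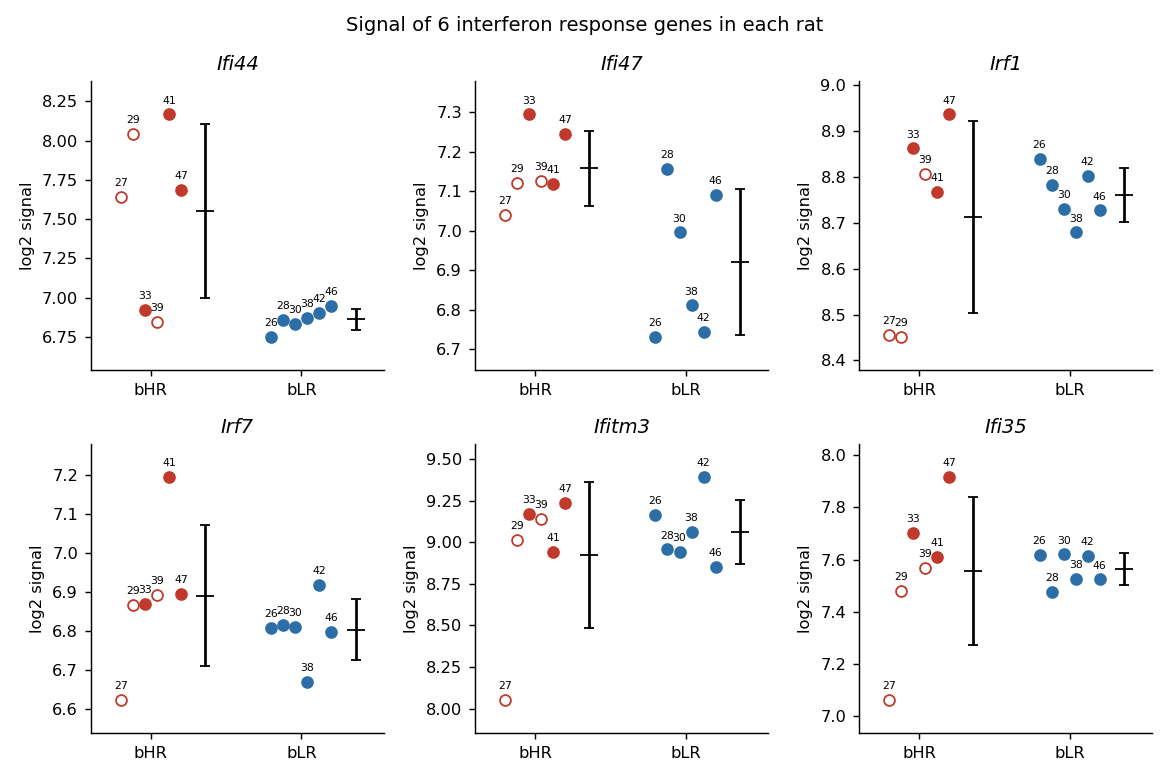
Normalised log2 signal (y axis, scales differ between panels) of 6 interferon response genes in each rat, by line; numbers are rat numbers, open circles the 3 dim arrays, and bars beside the points the mean ± SD of 6 rats. *Ifi44* was high in 4 bHR rats and at the bLR level in the other 2, and bHR replicate 27 was the lowest rat for *Ifitm3* and *Ifi35*.

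None of the transcription factors of the response passed the test. *Irf1*, an early factor induced by interferon gamma, read 8.45, 8.79 and 8.94 (lowest, median and highest rat) in bHR and 8.68, 8.76 and 8.84 in bLR, with a difference of -0.05 ± 0.08 (SE; limma adjusted p = 0.96). Its bHR rats spread wider and enclosed the bLR range, with the dim replicates 27 and 29 at the bottom. *Irf9*, the DNA-binding partner of STAT2, read 7.97, 8.13 and 8.27 in bHR and 8.09, 8.14 and 8.27 in bLR, with a difference of -0.01 ± 0.06. The brighter *Stat2* probe gave +0.13 ± 0.07 (limma adjusted p = 0.83) and the dimmer +0.02 ± 0.05. *Irf7*, which amplifies type I interferon production, gave +0.09 ± 0.08, with bHR replicate 41 at 7.20 and bHR replicate 27 at 6.62. *Irf8*, a factor that microglia depend on, lay below the median of all probes in each line and gave +0.01 ± 0.05.

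Of 10 listed receptors and kinases that act before these factors, 6 were measured. All 6 had bright probes, and none passed. For the IFNAR subunit *Ifnar1* the bHR mean was 7.31 ± 0.14 (SD, n = 6), the bLR mean 7.17 ± 0.06 and the difference +0.14 ± 0.06 (SE; limma adjusted p = 0.82; unadjusted p = 0.040). The IFNGR subunits gave +0.12 for *Ifngr1* and +0.05 for *Ifngr2*. Among the kinases, *Jak1* gave +0.04, *Jak2* +0.03 and *Tyk2* +0.03, the last at a signal close to the median of all probes. Of these 6 probes, 1 had an unadjusted p under 0.05 (16.7%, against 6.02% of all probes). All 6 had values higher in bHR, with a median of +0.04 against +0.00 for all probes. This split rested on bHR replicate 27 and on the scaling: 4 of 6 were higher without that rat, 3 of 6 in the 9 brighter arrays, 2 of 6 with arrays centred on their medians and 0 of 6 without scaling. The interferon genes themselves (*Ifna1*, *Ifna4*, *Ifna11*, *Ifnb1*, *Ifng* and *Ifnk*, 8 probes) lay at or below the median of all probes in each line, with 0 of 8 at an unadjusted p under 0.05. None of the inhibitors of the pathway had an unadjusted p under 0.05. The feedback inhibitor *Socs3*, which acts on JAK kinases, gave +0.11 ± 0.05 (limma adjusted p = 0.83).

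RNA sensing was represented by *Ddx58*, which encodes the sensor RIG-I (+0.05 ± 0.06), *Trim25*, a ubiquitin ligase that acts on RIG-I (-0.06 ± 0.09), and *Eif2ak2*, the kinase PKR that halts translation on double-stranded RNA (+0.05 ± 0.08). Their limma adjusted p was 0.95 for each. Of 13 sensors, adaptors and IRF factors outside the member list, 1 had an unadjusted p under 0.05 (7.69%, against 6.02% of all probes). This was *Aim2*, a sensor of cytosolic DNA, at 6.27 ± 0.07 (SD, n = 6) in bHR and 6.13 ± 0.06 in bLR (+0.14 ± 0.05, SE; limma adjusted p = 0.68). The lines did not overlap for *Aim2*, as for 0.391% of all probes, although both lay below the median of all probes.

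The antiviral effectors showed no difference past the test. The IFIT proteins bind foreign RNA, and their probes lay near or below the median of all probes. *Ifit1* gave +0.12 ± 0.06 at the brighter probe (limma adjusted p = 0.83) and +0.10 ± 0.10 at the other, *Ifit2* -0.04 ± 0.07 and *Ifit3* +0.07 ± 0.04. *Ifit3* read 6.12, 6.14 and 6.21 (lowest, median and highest) in bHR and 5.995, 6.07 and 6.18 in bLR. For the dimmer *Ifit1* probe bHR replicate 41 read 6.78, and the other 11 rats read at most 6.47. The ubiquitin-like modifier *Isg15*, listed as *G1p2*, gave -0.03 ± 0.06. Of the Mx GTPases, which block viral nucleocapsids, *Mx1* read 8.35, 8.52 and 8.66 (lowest, median and highest) in bHR and 8.20, 8.37 and 8.80 in bLR. The difference was +0.06 ± 0.10, with the bLR rats enclosing the bHR range. *Mx2* read 7.54, 7.64 and 7.87 in bHR and 7.54, 7.66 and 7.79 in bLR, with a difference of +0.00 ± 0.06.

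Oligoadenylate synthetases make the messenger that activates the antiviral RNase L. All 5 of their probes lay below the median of all probes in each line, between 5.99 and 6.84 in single rats. *Oas1a* (+0.02), *Oas1b* (+0.01), *Oas1i* (-0.11), *Oas2* (+0.03) and *Oasl* (-0.01) had limma adjusted p from 0.86 to 0.99. *Oas1a* read 6.23, 6.30 and 6.33 in bHR and, more widely, 6.18, 6.29 and 6.38 in bLR. The *Oas1* promoter windows above shared nearly the same letters, and whether the probes tell the *Oas1* genes apart was not tested. Nor was it tested for *Mx1* and *Mx2*, the IFITM genes, and the GTPases that follow.

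The GBP and immunity-related GTPases attack the membranes around intracellular pathogens. Besides *Ifi47*, *Gbp2* gave -0.08 ± 0.05, *Gbp5* -0.12 ± 0.07 (limma adjusted p = 0.84) and *Igtp* -0.08 ± 0.07, the latter 2 below the median of all probes. The brighter *Irgm* probe read 7.61, 7.82 and 8.06 in bHR and 7.87, 7.96 and 8.001 in bLR, with a difference of -0.10 ± 0.07 (SE; limma adjusted p = 0.89). The dimmer *Irgm* probe gave the opposite sign, +0.10 ± 0.07, at a signal below the median of all probes, with 5.89, 6.00 and 6.34 in bHR and 5.79, 5.98 and 6.05 in bLR.

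Membrane and secreted members included the IFITM proteins, which block viral fusion. *Ifitm3* read 8.05, 9.07 and 9.24 (lowest, median and highest) in bHR and 8.85, 9.01 and 9.39 in bLR. The lines overlapped apart from bHR replicate 27, which lay far below the other 11 rats, and the difference was -0.14 ± 0.17 (SE; limma adjusted p = 0.94). The sign rested on that rat: the difference was +0.04 without it and +0.06 within the 9 brighter arrays. *Ifitm1* read 7.20, 7.38 and 7.47 in bHR and 7.20, 7.34 and 7.44 in bLR (+0.02 ± 0.06). *Rtp4*, a chaperone of membrane receptors, read 7.49, 7.88 and 8.44 in bHR and 7.72, 7.95 and 8.24 in bLR (+0.01 ± 0.15). *Lgals3bp*, a secreted galectin-binding glycoprotein, read 7.43, 7.78 and 7.97 in bHR and 7.54, 7.63 and 7.999 in bLR (+0.05 ± 0.11). For all 4 genes the ranges of the lines overlapped broadly. *Bst2*, or tetherin, which holds budding virions at the cell surface, gave -0.02 ± 0.07, and the chemokine *Cxcl10* gave -0.03 ± 0.09. *Ifi35*, a cytosolic leucine-zipper protein, read 7.06, 7.59 and 7.92 in bHR and 7.48, 7.57 and 7.62 in bLR, with a difference of -0.01 ± 0.10 with the bHR rats spread on both sides of the bLR range.

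**Figure D3:**
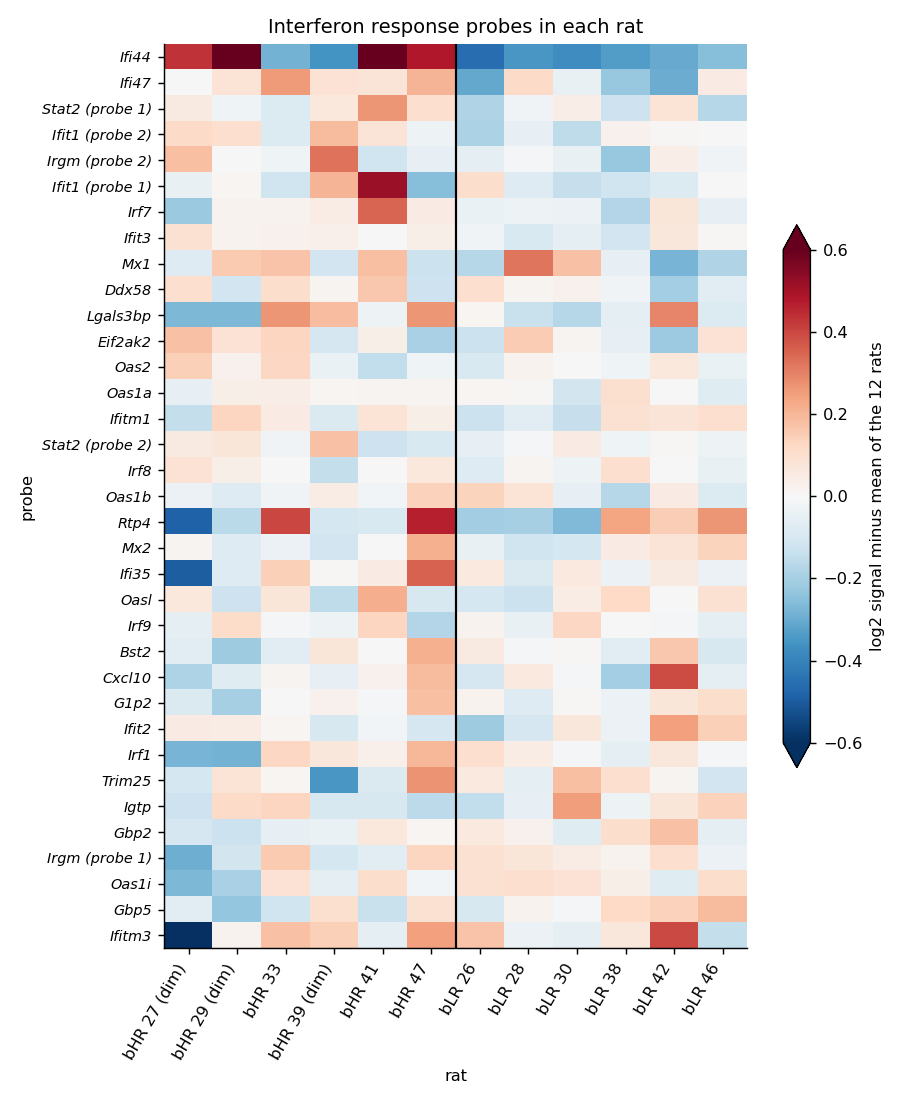
Signal of the 35 interferon response probes (rows, ordered by the line difference) in each of the 12 rats (columns), as log2 signal minus the mean of the 12 rats for that probe; the line divides bHR from bLR and the colour scale ends at ±0.6. The top row, *Ifi44*, is high in 4 bHR rats, and bHR replicate 27 is low for *Ifitm3*, *Ifi35* and *Rtp4*.

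Values spread more among bHR than among bLR rats. The bHR line also held all 3 dim arrays, and dim replicates 29 and 39 stay in where only replicate 27 is left out. The SD of bHR exceeded that of bLR for 25 of 35 member probes (71.4%) and for 64.7% of all probes, and for 23 of the 35 without bHR replicate 27 (65.7%, against 56.9% of all probes). The bHR SD was over 3 times the bLR SD at 6 member probes (17.1%), against 5.43% of all probes, and at 4 without bHR replicate 27 (11.4%, against 3.48%). The 6 were *Ifi44* (0.55 against 0.07), *Ifi35* (0.28 against 0.06), *Irf1* (0.21 against 0.06), the brighter *Irgm* probe (0.17 against 0.05), and the dimmer probes of *Stat2* and *Ifit1*. Those that fell under 3 times without that rat were *Ifi35* and *Irgm*. The difference in spread was not tested, and over the member probes as a set it was not separated from the mix of dim and brighter arrays in bHR. On the 3 brighter bHR arrays alone (replicates 33, 41 and 47), *Ifi44* read 6.92, 8.17 and 7.69. On the same arrays *Irf1* read 8.86, 8.77 and 8.94.

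The 3 dim arrays moved with the members. Within bHR, member probes had lower means on the 3 dim than on the 3 brighter arrays in 25 of 35 cases, and among bright probes in 17 of 20, with median differences of -0.09 and -0.12. Over all probes 49.1% were lower on the dim arrays. *Rtp4* differed by -0.51, *Ifitm3* by -0.38, *Ifi35* by -0.37 and *Irf1* by -0.28 between dim and brighter bHR arrays. Within the 9 brighter arrays (3 bHR and 6 bLR), 27 of 35 member probes had values higher in bHR, with a median of +0.05, where 50.8% of all probes were higher, with a median of +0.00. Limma again called 0 of 35 at an adjusted p of 0.05, and 0.0755% of all probes. There were 4 member probes at an unadjusted p under 0.05 (11.4%, against 5.72% of all probes): *Ifi44* (+0.77), *Ifi47* (+0.32), *Irf7* (+0.20) and *Ifi35* (+0.19), with limma adjusted p from 0.43 to 0.85. A fit with brightness as a block takes its line difference from the same 9 arrays, because every dim array is bHR, so it adds no separate support. It gave 27 of 35 higher (50.8% of all probes). Limma then called 0 of 35 and 6 of all probes, with 3 members (8.57%) and 4.88% of all probes at an unadjusted p under 0.05. Markers of several cell types also had medians away from 0 in the 9 brighter arrays, although limma called 0 probes of these lists. Values were higher in bHR for 0 of 5 astrocyte probes (median -0.22) and 3 of 11 neuron probes (median -0.19). They were higher for 7 of 9 meningeal (median +0.17) and 8 of 11 choroid plexus probes (median +0.17). Medians were nearer 0 for microglial probes (10 of 17 higher, +0.03) and for endothelial and pericyte probes (5 of 13 higher, -0.04). Choroid plexus markers averaged 9.34 and 9.28 in bHR replicates 33 and 47 but 7.29 in bHR replicate 41, the lowest of the 9. The astrocyte and neuron means of the 3 dim bHR rats (11.94 to 12.29 and 8.78 to 9.05) all exceeded those of the 3 brighter bHR rats (11.51 to 11.71 and 8.58 to 8.74). The part of these cells in the members' shift was not tested. The dim arrays hold bHR rats alone, so their brightness and those rats' own levels cannot be told apart.

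**Figure D4:**
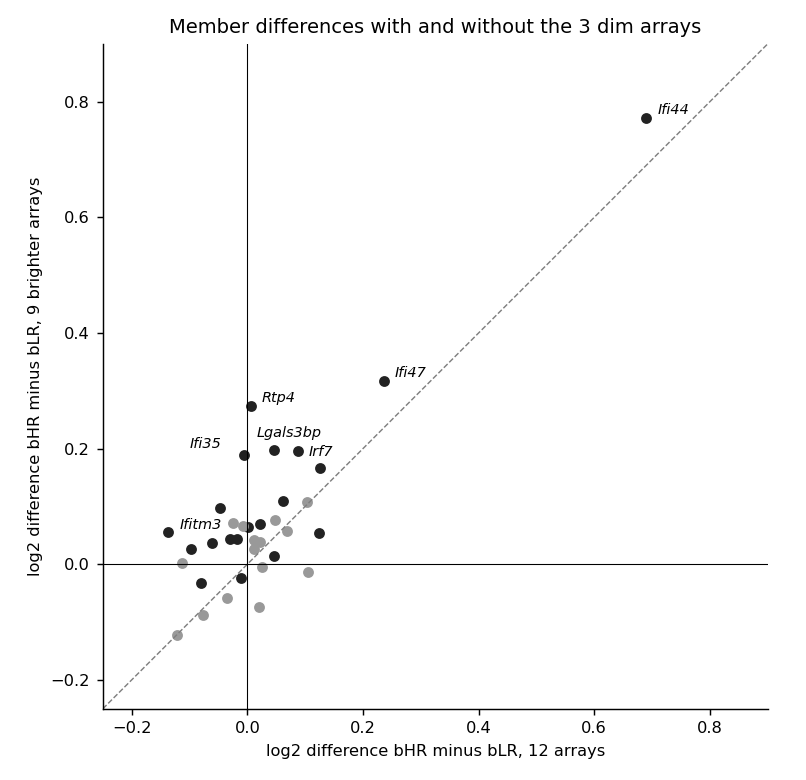
Difference between the lines for each member probe over all 12 arrays (x axis) and over the 9 brighter arrays alone (y axis), both as log2 bHR minus bLR; black points are bright probes, grey points the others, and the dashed line marks equal values. *Rtp4*, *Ifi35*, *Lgals3bp*, *Irf7* and *Ifitm3* lie above the dashed line, and *Ifi44* and *Ifi47* are highest in both.

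Members moved together across rats only in part. With line means removed, the median correlation over the 595 pairs of member probes was 0.02, and over the 190 pairs of bright probes it was 0.13, beside 0.00 for all pairs of bright probes on the array. A correlation above 0.7 was found in 7.89% of the bright member pairs and in 2.91% of all bright pairs. Within the 9 brighter arrays the median over bright member pairs was -0.03. Most of the high pairs joined *Irf1*, *Ifi35*, *Irgm*, *Ifitm3*, *Lgals3bp*, *Rtp4*, *Bst2* and *G1p2*, a set picked here from these values. For *Irf1* and *Lgals3bp* Pearson's r was 0.84 (permutation p = 0.0026) and Spearman's rho 0.78 (permutation p = 0.0066) over 12 rats. Without the 2 rats farthest from the *Irf1* median r was 0.69, and within the 9 brighter arrays it was 0.62. For *Ifitm3* and *Lgals3bp* r was 0.75 (permutation p = 0.00078) and rho 0.86 (permutation p = 0.00026), with r of 0.71 without the 2 farthest rats and 0.93 within the 9 brighter arrays. None of the 595 pairs passed Benjamini-Hochberg adjustment (permutation test of r, adjusted p of 0.29 for both these pairs). An unadjusted permutation p under 0.05 was found for 54 of the 595, of which 40 had a positive r. The same share was not computed over all pairs of probes. The pairs of *Ifi44* are in these counts, although its bHR values lay in separate places, and none of them is named.

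**Figure D5:**
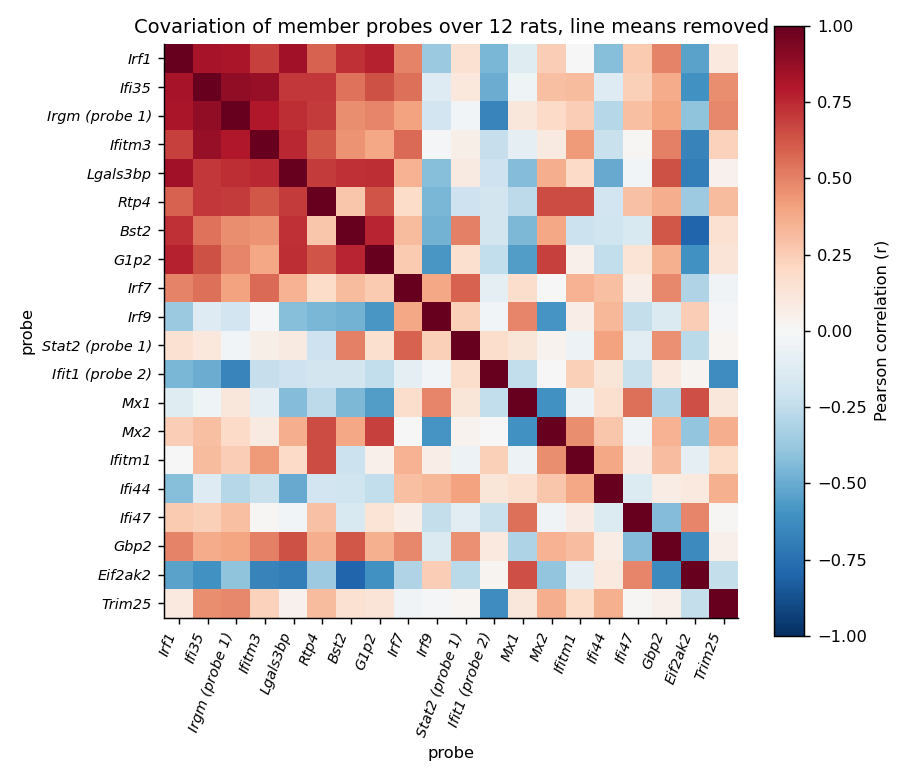
Pearson correlation (colour) over 12 rats between the 20 member probes above the median of all probes, after the mean of each line was removed; both axes list the same probes, with the 8 genes of the most correlated pairs first. The upper left block is positive throughout, and *Eif2ak2* is negative against all 8 of these genes.

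Markers of cells that respond to interferon were set beside these levels. In bulk tissue, fewer cells of a type and less RNA per cell cannot be told apart. Microglial markers (15 of 16 genes measured, 17 probes) averaged 8.35 to 8.64 in single bHR rats and 8.57 to 8.67 in bLR, with bHR replicate 27 the lowest. Values were lower in bHR for 11 of 17 microglial probes, for 9 without that rat and for 7 in the 9 brighter arrays. Of the 17, 1 had an unadjusted p under 0.05 (5.88%, against 6.02% of all probes). This was *C1qc*, a complement subunit made by microglia (-0.25 ± 0.09, limma unadjusted p = 0.011, adjusted p = 0.68). Choroid plexus markers (11 of 12 genes) averaged 7.10 in bHR replicate 27 and 7.29 in bHR replicate 41, against at least 8.17 in the other 10 rats. Replicate 27, the lowest rat for *Ifitm3*, *Ifi35* and *Rtp4*, was also the lowest of the 12 for meningeal (9.17), red blood cell (9.96) and antigen presentation genes (7.52), and the highest for astrocyte (12.29) and neuron markers (9.05). Replicate 41 read 8.94, 7.61 and 7.89 for *Ifitm3*, *Ifi35* and *Rtp4*. Endothelial and pericyte markers averaged 8.46 to 8.55 in bHR and 8.44 to 8.60 in bLR. Of their 13 probes, 2 had an unadjusted p under 0.05 (15.4%, against 6.02% of all probes) and 0 passed. These were *Rgs5* (-0.22 ± 0.07, limma adjusted p = 0.68) and *Slc2a1* (+0.13 ± 0.06, limma adjusted p = 0.81), the latter below the median of all probes in each line. Leukocyte markers of blood lay mostly below the median of all probes (11 of 13 probes). The part of these cells in the member levels was not tested.

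Other interferon-induced genes were read from lists that do not overlap the members. Of 33 probes for 30 such genes, 4 had an unadjusted p under 0.05 (12.1%, against 6.02% of all probes) and 0 passed over all probes, with a median difference of +0.02. Values were higher in bHR for 21 of the 33 (50.9% of all probes), for 12 with arrays centred on their medians and for 0 without scaling. The brighter *Ifi204* probe (+0.16 ± 0.05; the other probe +0.13 ± 0.07) and *Mnda* (+0.16 ± 0.06), DNA-binding proteins of the same family, and the chemokine *Ccl5* (+0.16 ± 0.05) had higher values in bHR. The antiviral zinc finger protein *Zc3hav1* had a lower value (-0.14 ± 0.05). Their limma adjusted p ran from 0.62 to 0.76. The brighter *Ifi204* probe passed the median of all probes in bHR alone (6.73, against 6.56 in bLR). *Mnda*, *Ccl5* and *Zc3hav1* lay below that median in each line. Antigen presentation genes that interferons induce gave 1 of 17 probes at an unadjusted p under 0.05 (5.88%, against 6.02% of all probes). This was the peptide transporter *Tap2* (-0.13 ± 0.06, limma adjusted p = 0.81). The list had 9 of 17 probes with values higher in bHR, and 11 of 17 without bHR replicate 27, with 0 then at an unadjusted p under 0.05. *B2m*, the light chain of MHC class I, gave -0.14 (limma adjusted p = 0.83).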

How the data were processed

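Hippocampal RNA from 12 rats was measured on 12 arrays. Per the design text, the authors read average bead intensity with limma (3.28.21 per the submitters' processing notes), took log2, quantile normalised with preprocessCore 1.34.0 and kept every array. The deposited intensity table is linear and not normalised between arrays, and no source used here gives a background correction. Probe sequences were not used. The authors' log2 table served as an alternative.

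The deposited intensities were taken to log2 and quantile normalised again, within 0.254 of the authors' log2 values (median 0.00037). Limma 3.58.1 in R 4.3.3 (lmFit, eBayes) fitted the bred line on all 22523 probes, two-sided, with Benjamini-Hochberg adjustment at 0.05. The fit was checked on simulated data. Exact permutation tests used all 924 assignments of rats, and pair correlations 100000 permutations within lines. Other symbols in RefSeq came from the GRCr8 gene table (30 member genes by symbol, 2 by synonym).

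Every measured member was described. Values in both lines were given for members with an unadjusted p under 0.05, for members with a rat set apart in its line, and for the 10 with the highest signal. Members and gene lists were chosen with earlier results of these data known. Alternatives were other scaling, normexp with an offset of 50, the authors' values, a filter on dim probes, variance trend, array weights, each rat left out, other thresholds, and array brightness. A pathway gene outside the members is not reported here and was left out of its list.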

Additional observations from a re-analysis of the deposited data

Results flagged for a closer look

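Each member probe and the mean of all 35 was examined for a rat far from the other 5 of its line, in 72 groups of 6 values, of which 4 had such a rat. Chance singles out about 1 in 20 groups. Of the 4, 3 concern bHR replicate 27, one of the dim arrays. Its *Ifitm3* signal was 8.05, below the 8.94 to 9.24 of the other bHR rats. Its *Oas1a* signal was 6.23 against 6.295 to 6.33, and its *Ifit3* signal 6.21 against 6.12 to 6.15. These last 2 probes lie below the median of all probes, and their gaps are small. In bLR, replicate 38 read 5.79 at the dimmer *Irgm* probe against 5.96 to 6.05 in the others. Between the lines, the exact permutation p was 0.048 for *Ifit3* and 0.65 for *Ifitm3* (n = 6 per line). Limma gave an unadjusted p of 0.13 and 0.43, and an adjusted p of 0.87 and 0.94.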

How the results depend on the processing

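Limma called 0 member probes in every alternative run (35 tested, or 20 with the filter on dim probes). Of them 2 to 10 had an unadjusted p under 0.05: 10 of 35 (28.6%) on unscaled arrays, against 43.8% of all probes, and 5 (14.3%) with median centring, against 24.3%. The median member difference was -0.22 on unscaled arrays (also -0.22 for all probes) and -0.02 with median centring (-0.02 for all probes). The count of all called probes, 20, was 6 with median centring, 4 without scaling, 6 with brightness as a block, 4 with each array's mean log2 intensity as a covariate and 9 at a threshold of 0.01. It was 28 with a variance trend or with array weights, 23 with normexp or the dim-probe filter, and 30 at a threshold of 0.1. Leaving out 1 rat moved it to 9 at the lowest, when bLR replicate 28 was omitted, and 24 at the highest, when bHR replicate 27 was. Over the same omissions the median member difference ran from -0.0013 to +0.02. *Ifi44* was higher in bHR in all 22 alternatives for single genes, between +0.41 and +0.85, with a limma adjusted p from 0.13 to 0.999, and *Ifi47* in 21, with -0.04 without scaling. No paired analysis was possible because the lines share no replicate number. Probes at or below the median signal limit what can be seen for the 12 member genes with no brighter probe, and 6 rats per line limit the rest.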

Other observations

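Genes next to *Ifi44* and *Ifi47* on the GRCr8 annotation were read after the member values were seen, taking the 3 nearest measured genes on each side. Around *Ifi44*, on chromosome 2, *Adgrl4*, an adhesion receptor of endothelium, gave +0.11 ± 0.07, *Adgrl2* -0.09 ± 0.08 and *Prkacb* -0.03 ± 0.06. On the other side *Ptgfr* gave +0.04 ± 0.06, *Gipc2* -0.13 ± 0.12 and *Dnajb4* -0.12 ± 0.14. None of these 6 genes had an unadjusted p under 0.05. Around *Ifi47*, on chromosome 10, the nearest genes were *Irgm*, described above, *Trim7* (+0.00 ± 0.05) and RGD1559575 (-0.03 ± 0.05) on one side and 3 olfactory receptor genes on the other, at +0.06, +0.05 and -0.01.

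Blood leukocyte markers gave 3 of 13 probes at an unadjusted p under 0.05 (23.1%, against 6.02% of all probes) and 0 past limma's adjusted threshold. *S100a8*, a calcium-binding protein of neutrophils, had a difference of -0.23 ± 0.07 (limma adjusted p = 0.56). Its partner *S100a9* had one of +0.14 ± 0.05 (limma adjusted p = 0.73), and the T cell receptor subunit *Cd3g* one of +0.13 ± 0.06 (limma adjusted p = 0.82). All 3 lay below the median of all probes in each line.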
